A study of Homo sapiens with 2 samples.

Results

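Antisense long noncoding RNAs were described here in RKO cells after depletion of the splicing factor SRSF2. The members were chosen by their name and by their counts: every row whose symbol ended in -AS1 was taken, and those with at least 100 counts over the control and the knockdown library together were selected. This gave 87 of the 921 -AS1 rows in a table of 54261 rows. Of the other -AS1 rows, 364 had between 1 and 99 counts and 470 had 0 counts in both libraries. A member was set beside its sense gene, the gene whose symbol stands before -AS1.

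RKO is an established human colorectal cancer cell line. The cells of both groups carried no other labelled change. The si-NC group was transfected with a negative control siRNA and is the control in the labels, and the si-SRSF2 group was transfected with siRNA against SRSF2. The labels name the library of the second group KD2, and 1 library was deposited for each group. With 1 library per group the spread between transfections is unknown, no test between the groups was possible and no p-value is given. The libraries were made with a stranded kit that selects polyadenylated RNA, so RNAs without a poly(A) tail were not sampled.

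An antisense lncRNA is transcribed from the strand opposite to another gene. Where its start lies beside that of a coding gene, the 2 genes share a bidirectional promoter and are read away from each other. Where it lies across the gene, the transcripts can pair with each other and with the same DNA. SRSF2 belongs to the serine/arginine-rich proteins, which bind exonic RNA in pre-mRNA and guide the choice of splice sites, and SRSF2 has also been tied to release of paused RNA polymerase II. Many antisense lncRNAs are spliced, capped and polyadenylated like mRNAs, but at low levels.

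The 6 promoters below, shared by a member and its sense gene, are shown first, as examples of pairs whose starts lie close together and whose antisense-to-sense ratio differed between the libraries by the interval. They were picked after their values were seen from 13 such pairs with a shared window. The sequences are RefSeq windows on GRCh38.p14, which run from 250 bases before to 50 bases after the start of the antisense RNA, and are printed 5′ to 3′ on the strand of the antisense RNA. Capitals mark the bases that also lie in the same window of the sense gene. TPT1-AS1 (chr13:45341095-45341394 on the plus strand), EIF3J-AS1 (chr15:44536874-44537173 on the minus strand) and DICER1-AS1 (chr14:95157438-95157737 on the plus strand) were higher in the si-SRSF2 library. SRP14-AS1 (chr15:40039061-40039360 on the plus strand), UBL7-AS1 (chr15:74461015-74461314 on the plus strand) and ZBED5-AS1 (chr11:10857967-10858266 on the plus strand) were lower.
TPT1-AS1: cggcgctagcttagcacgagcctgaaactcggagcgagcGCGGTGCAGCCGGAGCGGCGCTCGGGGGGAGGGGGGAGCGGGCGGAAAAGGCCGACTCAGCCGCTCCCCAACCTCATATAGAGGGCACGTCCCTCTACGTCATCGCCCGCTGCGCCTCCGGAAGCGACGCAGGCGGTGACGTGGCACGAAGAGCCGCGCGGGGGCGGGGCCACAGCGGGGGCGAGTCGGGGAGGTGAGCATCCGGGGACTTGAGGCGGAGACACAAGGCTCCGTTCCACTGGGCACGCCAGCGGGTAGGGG
EIF3J-AS1: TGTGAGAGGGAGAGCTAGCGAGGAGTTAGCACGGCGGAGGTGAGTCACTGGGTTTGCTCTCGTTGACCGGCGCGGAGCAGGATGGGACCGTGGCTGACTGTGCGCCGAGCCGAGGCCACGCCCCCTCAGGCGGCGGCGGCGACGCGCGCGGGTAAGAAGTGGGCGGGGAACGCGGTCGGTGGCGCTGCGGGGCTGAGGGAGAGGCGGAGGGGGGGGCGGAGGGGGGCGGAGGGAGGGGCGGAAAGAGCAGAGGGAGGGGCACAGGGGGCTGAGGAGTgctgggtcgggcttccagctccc
DICER1-AS1: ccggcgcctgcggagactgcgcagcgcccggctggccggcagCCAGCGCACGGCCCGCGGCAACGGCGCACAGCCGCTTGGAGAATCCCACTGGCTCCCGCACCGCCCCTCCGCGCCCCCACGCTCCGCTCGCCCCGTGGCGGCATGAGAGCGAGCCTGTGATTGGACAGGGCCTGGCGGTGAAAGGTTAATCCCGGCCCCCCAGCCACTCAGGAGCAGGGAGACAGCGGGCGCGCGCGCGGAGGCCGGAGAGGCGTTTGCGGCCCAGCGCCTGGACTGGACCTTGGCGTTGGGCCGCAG
SRP14-AS1: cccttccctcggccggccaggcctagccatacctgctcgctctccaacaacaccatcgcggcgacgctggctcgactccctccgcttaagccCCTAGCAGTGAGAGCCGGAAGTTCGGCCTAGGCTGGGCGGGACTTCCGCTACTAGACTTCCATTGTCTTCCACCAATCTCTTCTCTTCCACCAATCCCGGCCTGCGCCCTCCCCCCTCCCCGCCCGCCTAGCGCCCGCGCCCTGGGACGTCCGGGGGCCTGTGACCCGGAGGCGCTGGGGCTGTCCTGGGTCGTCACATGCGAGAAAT
UBL7-AS1: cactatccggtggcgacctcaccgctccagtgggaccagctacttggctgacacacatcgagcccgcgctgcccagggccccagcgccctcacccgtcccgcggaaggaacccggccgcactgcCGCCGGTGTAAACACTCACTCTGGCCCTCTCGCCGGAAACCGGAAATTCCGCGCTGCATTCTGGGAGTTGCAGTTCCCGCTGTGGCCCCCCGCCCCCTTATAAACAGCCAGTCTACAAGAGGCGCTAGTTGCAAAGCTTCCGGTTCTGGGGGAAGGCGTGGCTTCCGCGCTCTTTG
ZBED5-AS1: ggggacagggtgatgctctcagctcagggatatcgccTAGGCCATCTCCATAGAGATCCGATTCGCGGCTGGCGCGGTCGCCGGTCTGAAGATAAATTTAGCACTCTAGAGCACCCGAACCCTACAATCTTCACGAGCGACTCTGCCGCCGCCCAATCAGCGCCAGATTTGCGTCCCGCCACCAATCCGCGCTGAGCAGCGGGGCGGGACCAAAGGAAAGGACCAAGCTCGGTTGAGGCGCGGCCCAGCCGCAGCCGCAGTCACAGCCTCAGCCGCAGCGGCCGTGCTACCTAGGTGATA

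These windows shared 261, 277, 258, 208, 176 and 263 bases with those of TPT1, EIF3J, DICER1, SRP14, UBL7 and ZBED5, in that order. A RefSeq window was found for 76 of the 87 members, and 25 of these shared bases with the window of the sense gene, with a median of 176 bases. Member windows had a median GC content of 65.3%, against 58.3% over all 27305 windows, and a median of 25.5 CpG dinucleotides, against 14. Windows with at least 50% GC and a CpG count of at least 0.6 of that given by the base composition made up 72.4% of the members' windows (55 of 76) and 46.9% of all windows. The members were chosen by their counts, while all windows were taken whether or not the gene was expressed. These contrasts and those of the motifs below are thus not matched for expression, and are not shown to be traits of antisense promoters.

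Short motifs were counted on both strands of the same windows. The GC box GGGCGG was in 65.8% of the members' windows, in 84.0% of the 25 that shared bases with the sense window, and in 44.6% of all windows. The ETS core CCGGAA was in 32.9% of the members' windows and 17.6% of all, and TGACG, the core of the cAMP response element, in 31.6% and 25.01%. CCAAT was in 36.8% of the members' windows and 35.7% of all. The TATA box letters TATAAA were in 2 member windows (2.63%), against 12.0% of all windows. Among the printed windows, those of TPT1-AS1 and SRP14-AS1 each held GGGCGG 2 times and CCGGAA 1 time, and that of UBL7-AS1 held TATAAA 1 time and CCGGAA 3 times. The members sharing a window with the sense gene had a median log2 ratio of 0.14, and the 51 others with a window had 0.12.

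The si-NC library had 19931360 counts and the si-SRSF2 library 14512802, and the members took 0.145% and 0.154% of them. In what follows counts are given first for si-NC and then for si-SRSF2. SRSF2 itself had 1964 and 713 counts, a log2 ratio of -0.997 (95% interval -1.13 to -0.88). Of the epithelial markers, KRT8 had 547 and 618 counts, KRT18 632 and 477 and EPCAM 179 and 147, while KRT19 (1 and 1) and CDH1 (10 and 6) were near 0. CDX2, an intestinal transcription factor, had 212 and 158 counts, and VIL1 and LGR5 had at most 1 count in a library. Of the mesenchymal markers, the filament gene VIM had 558 and 383 counts, while the collagen gene COL1A1 had 13 and 13. The blood and endothelial markers PTPRC and PECAM1 had at most 2. Counts were scaled to CPM, the counts of a row per 1000000 counts of its library, with TMM library sizes, and a log2 ratio is the log2 of CPM plus 0.5 in si-SRSF2 less the same in si-NC. Each 95% interval is an exact Clopper-Pearson interval of the ratio of counts, taken without the added 0.5, and covers counting error only. A row is called higher or lower in si-SRSF2 where its interval excludes no change.

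The antisense RNAs were rare. Members had 48 to 7565 counts (median 144) in si-NC and 37 to 6064 (median 104) after depletion. Of the 87, 31 had under 200 counts over both libraries and 7 had 1000 or more. Of all rows, 20.6% reached 100 counts, and 9.45% of the -AS1 rows did. A count of 0 in a library allows a level of up to 3 counts, which is 0.151 CPM in the control and 0.207 CPM in the knockdown library. Just above the minimum stood DLGAP1-AS1 with 104 counts over both libraries and ZNF529-AS1 and DICER1-AS1 with 106. Just below it stood GMDS-AS1 with 98, FLVCR1-AS1 with 97 and SRP54-AS1 with 93. FLVCR1-AS1 had 80 and 17 counts, a log2 ratio of -1.43.

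LRRC75A-AS1 took 26.7% of all member counts. Its 7565 and 6064 counts were 379.6 and 417.8 CPM, a log2 ratio of 0.14 (0.09 to 0.19). Its gene (ENSG00000175061.20, chr17:16438767-16480249, plus strand) is now named SNHG29 and hosts the snoRNA genes SNORD49A, SNORD49B and SNORD65 in its span. snoRNAs guide chemical modification of ribosomal RNA, and their hosts are commonly abundant spliced transcripts with little coding capacity. The other 3 members with a snoRNA gene inside, EPB41L4A-AS1, UBA6-AS1 and TMEM161B-AS1, had log2 ratios of 0.07, 0.06 and 0.13 with intervals that included 0. Next in counts came FGD5-AS1 (1520 and 1087), OTUD6B-AS1 (1250 and 1063), MMP24-AS1 (1222 and 1074), THAP9-AS1 (1310 and 866) and OIP5-AS1 (1180 and 816). OIP5-AS1 is a cytoplasmic lncRNA best known as a binder of miRNA and of the RNA-binding protein HuR, and its log2 ratio was -0.07 (-0.21 to 0.06). PSMA3-AS1, NIPBL-AS1, SVIL-AS1 and MAPKAPK5-AS1 completed the 10 with most counts. Among these 10, LRRC75A-AS1, OTUD6B-AS1, MMP24-AS1 and NIPBL-AS1 were higher in si-SRSF2, THAP9-AS1 was lower, and the intervals of the other 5 included no change.

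Most of these RNAs differed little between the libraries. The log2 ratios ran from -0.80 to 0.87, and 72 of the 87 lay within 0.5 of 0. The median was 0.13, with quartiles of -0.09 and 0.27, while the median over all 11184 rows with 100 counts or more was -0.03, with quartiles of -0.19 and 0.13. Of the members 54 were above 0 and 33 (37.9%) below, and over all those rows 55.0% were below 0. Over the 4413 rows with 100 to under 1000 counts, the range in which 80 of the members lie, the median was -0.02 and 53.1% were below 0.

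By the interval 18 members (20.7%) were higher in si-SRSF2, against 21.5% of all rows with 100 counts or more, and 12 (13.8%) were lower, against 28.9%. The interval of 57 members included no change. Among the 80 members with under 1000 counts, 15 (18.8%) were higher and 11 (13.8%) lower, and over all rows in that range 16.9% were higher and 21.2% lower. The share of members called higher was thus near that of all rows, and the share called lower was below it. No member was at least 2-fold higher or lower, while 0.331% and 0.25% of all rows with 100 counts or more were. With upper-quartile library sizes in place of TMM, 23 members were called higher and 9 lower, against 24.8% and 25.7% of all rows with that scaling, the median was 0.15 and that of all rows -0.01.

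**Figure D1:**
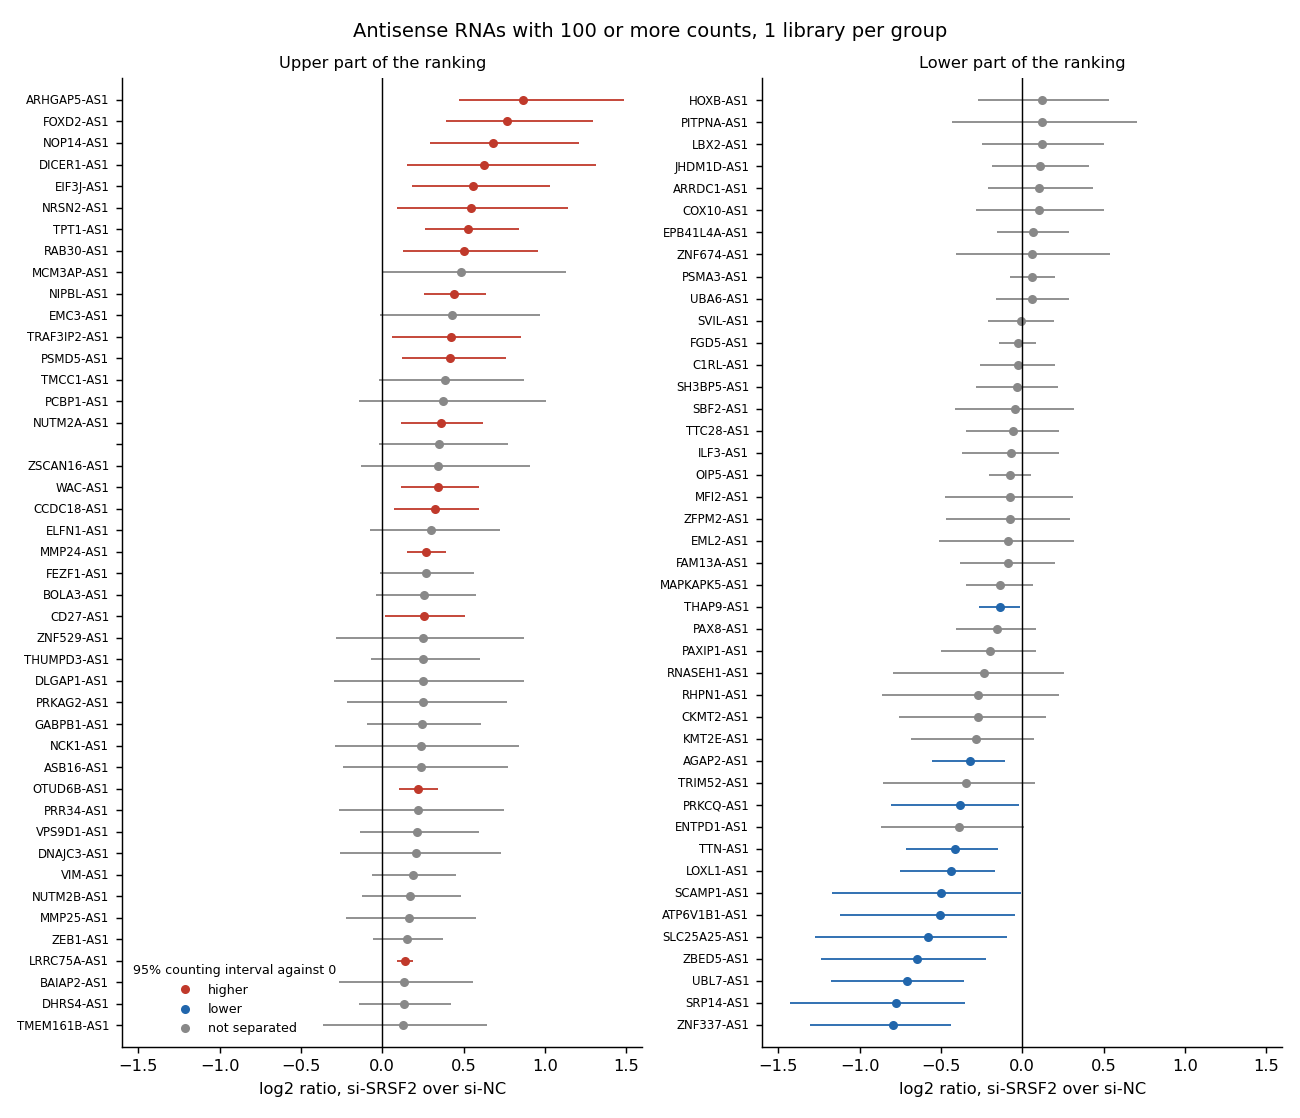
All 87 antisense RNAs ranked by log2 ratio of si-SRSF2 over si-NC (horizontal axis, log2 scale), the upper part of the ranking on the left and the lower part on the right. Points are the ratios of 1 library against 1 library, lines are 95% intervals of counting error, red marks the 18 called higher, blue the 12 called lower and grey the 57 whose interval includes 0; 1 grey member carries no name.

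The largest ratios belonged to antisense RNAs of a GTPase-activating protein, a forkhead factor and a ribosome assembly factor. ARHGAP5-AS1 (ENSG00000258655.2, chr14:32074946-32076793, minus strand), which has a single exon, had 58 and 83 counts, a log2 ratio of 0.87 (0.47 to 1.48). FOXD2-AS1 (ENSG00000237424.1, chr1:47432133-47434641, minus strand), also of a single exon and much studied in tumours, had 75 and 98 counts, a ratio of 0.77 (0.39 to 1.30). NOP14-AS1 had 75 and 92 counts, a ratio of 0.68 (0.30 to 1.21). All 3 had more raw counts in the shallower si-SRSF2 library.

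The next 5 were antisense to genes of RNA interference, translation, neuronal and vesicle biology. DICER1-AS1 had 48 and 58 counts (log2 ratio 0.63), and EIF3J-AS1, beside a subunit of an initiation factor, had 92 and 102 (0.56). NRSN2-AS1 had 60 and 67 counts (0.54), and TPT1-AS1 had 195 and 208 (0.53). RAB30-AS1, beside a small GTPase of the Golgi, had 97 and 103 counts (0.50). The other members called higher were NIPBL-AS1 (462 and 459 counts, log2 ratio 0.44), TRAF3IP2-AS1 (0.42), PSMD5-AS1 (0.42), NUTM2A-AS1 (0.36), WAC-AS1 (0.34), CCDC18-AS1 (0.32), MMP24-AS1 (0.27), CD27-AS1 (0.25), OTUD6B-AS1 (0.22) and LRRC75A-AS1 (0.14).

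The lowest ratios belonged to antisense RNAs beside a zinc finger gene, a subunit of the signal recognition particle and a ubiquitin-like protein. ZNF337-AS1 (ENSG00000213742.8, chr20:25624045-25689032, plus strand) had 160 and 64 counts, a log2 ratio of -0.80 (-1.31 to -0.44). SRP14-AS1 (ENSG00000248508.10, chr15:40039242-40080614, plus strand) had 106 and 42 counts, a ratio of -0.78 (-1.43 to -0.35). UBL7-AS1 (ENSG00000247240.10, chr15:74461248-74513971, plus strand) had 170 and 73 counts, a ratio of -0.71 (-1.18 to -0.36). The raw counts of these 3 were lower by more than the difference in depth of the libraries.

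ZBED5-AS1, beside a gene derived from a transposase, had 111 and 49 counts (log2 ratio -0.65), and SLC25A25-AS1, beside a mitochondrial carrier, had 81 and 37 (-0.58). ATP6V1B1-AS1, inside a proton pump subunit gene, had 92 and 45 counts (-0.51), and SCAMP1-AS1, beside a vesicle membrane gene, had 80 and 39 (-0.50, interval -1.17 to -0.01). LOXL1-AS1, beside a gene for an enzyme that crosslinks elastin, had 281 and 149 counts (-0.44). The remaining members called lower were TTN-AS1 (-0.41), PRKCQ-AS1 (-0.38), AGAP2-AS1 (-0.32) and THAP9-AS1 (1310 and 866 counts, -0.14). With upper-quartile library sizes SCAMP1-AS1, PRKCQ-AS1 and THAP9-AS1 were no longer called lower, and EMC3-AS1, FEZF1-AS1, MCM3AP-AS1 and TMCC1-AS1 were among those called higher.

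The antisense RNAs were placed on the GENCODE gene models of GRCh38, where 86 of the 87 had a gene. SVIL-AS1, whose symbol belongs to 2 gene models there, was left unplaced. By these models 20 members lay head-to-head with the sense gene without overlap, 23 head-to-head with overlap, 22 tail-to-tail with overlap and 12 inside the sense gene, and in 8 the sense gene lay inside the antisense gene. HOXB-AS1 lies in the HOXB cluster, which has no single sense gene of that name. In the current names 22 members had changed, and 18 of these now end in -DT, for divergent transcript, such as SRP14-DT, EIF3J-DT and NIPBL-DT. These models list 83 of the placed members as lncRNAs. Of the others, MMP24-AS1 is now the coding gene MMP24OS, and PSMD5-AS1 (now CUTALP) and EMC3-AS1 are listed as transcribed pseudogenes.

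Median log2 ratios by position were 0.08 for the head-to-head members without overlap, 0.19 for those with overlap, -0.03 for the tail-to-tail members, 0.14 for those nested in the sense gene and 0.26 for those around it. In these 5 classes 5, 7, 4, 0 and 2 members were called higher, and 4, 3, 3, 2 and 0 lower. Over all rows 21.5% were called higher and 28.9% lower, and the classes of 8 to 23 members are too small for their shares to be ranked. Each class held ratios on both sides of 0. The Spearman coefficient of the log2 ratio with the members' exonic length was 0.08 over 86 members, and that with their total counts was -0.15 over 87, where the counts enter both measures and all points share the same 2 libraries.

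**Figure D2:**
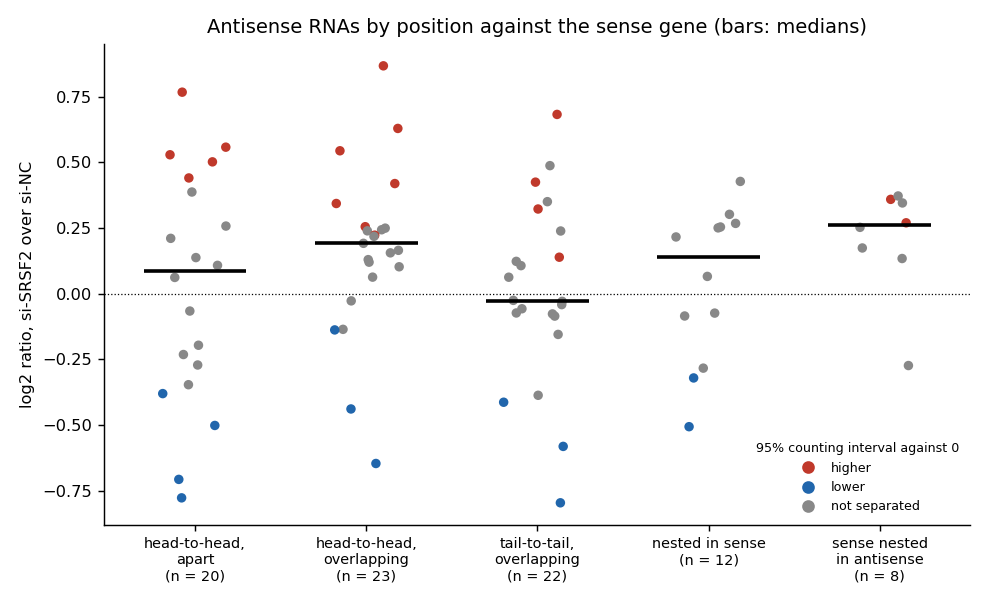
Log2 ratio of si-SRSF2 over si-NC (vertical axis) for the 85 antisense RNAs with a position, split into 5 positions against the sense gene, with random sideways shifts. Each point is 1 antisense RNA, black bars are the class medians, from -0.03 (tail-to-tail) to 0.26 (sense gene inside), and red, blue and grey mark higher, lower and not separated by the 95% counting interval.

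Because the 2 genes of a pair can overlap, reads from opposite strands must be told apart. The kit keeps the strand, but the strand setting of the counting was not given in the sources used here. In the models 55 members share exonic bases with the named sense gene, with a median of 10.4% of their exonic length, and 30 share none. In 6 members the shared part exceeds 50%: AGAP2-AS1, EML2-AS1, EPB41L4A-AS1, PITPNA-AS1, TTN-AS1 and ZNF337-AS1. The values of these 6 and of their sense genes are uncertain to that extent, and the pairs whose exons do not meet, such as TPT1-AS1, EIF3J-AS1 and SRP14-AS1, are free of it for the named sense gene. UBL7-AS1 shares no exonic bases with UBL7, but 56.4% of its exonic bases lie across exons of other genes on the opposite strand, so its value is uncertain in the same way. Other members carry this doubt to a smaller extent. Exons of any opposite-strand gene lie across 29.6% of HOXB-AS1, 28.9% of C1RL-AS1, 8.17% of EIF3J-AS1, 6.1% of TPT1-AS1 and 4.11% of SRP14-AS1. On the sense side over 40% of the exonic bases are shared in 6 pairs, those of PCBP1 (73.2%), ZNF337 (65.6%), OIP5 (63.2%), SH3BP5 (53.6%), CD27 (42.5%) and ENTPD1 (40.03%), and the counts of these sense genes carry the same doubt.

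The sense genes stood higher in level but not in every pair. Compared per kilobase of exon, the sense gene's level was above that of the antisense RNA by a median factor of 4.42 in si-NC and 3.93 in si-SRSF2, over the 65 pairs with lengths and at least 100 counts for the sense gene. Exonic length here is the union of exons over all GENCODE transcripts of a gene, not the length of the transcripts present. A gene with many transcripts, such as OIP5-AS1 with 72, can thus get a lower level per kilobase. The counting may also have used other gene models, so these levels depend on the lengths taken. In 25 of the 80 pairs with lengths the antisense RNA had the higher CPM per kilobase in both libraries, and in 23 of 81 pairs it had more raw counts in both, led by LRRC75A-AS1, FGD5-AS1, MMP24-AS1, THAP9-AS1 and OIP5-AS1. OIP5-AS1, of 22370 exonic bases against 1201 for OIP5, had the lower level per kilobase (2.65 and 2.51 CPM against 7.65 and 7.52), with the overlap given above. LRRC75A-AS1 had 42.4 and 46.7 CPM per kilobase in si-NC and si-SRSF2, and LRRC75A 2.12 and 1.86. THAP9-AS1 had 14.9 and 13.6, and THAP9, a gene descended from a DNA transposon, had 2.75 and 2.86.

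Some antisense RNAs were read in cells where their sense gene was nearly silent. FGD5, an endothelial exchange factor gene, had 1 and 0 counts beside 1520 and 1087 for FGD5-AS1, and MMP24, a membrane-bound metalloproteinase gene, had 3 and 1. CD27, a lymphocyte receptor gene, had 0 and 1 counts beside 300 and 262 for CD27-AS1, and is among the sense genes with much shared exon. In all, 15 members had a sense gene with under 20 counts over both libraries, and 5 of these sense genes (ASB16, CKMT2, EPB41L4A, NUTM2B and ZFPM2) had 0. At the other end, TPT1, which encodes the abundant translationally controlled tumour protein, had 43024 and 29811 counts, or 300.5 and 285.9 CPM per kilobase, beside 0.675 and 0.988 for TPT1-AS1.

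**Figure D3:**
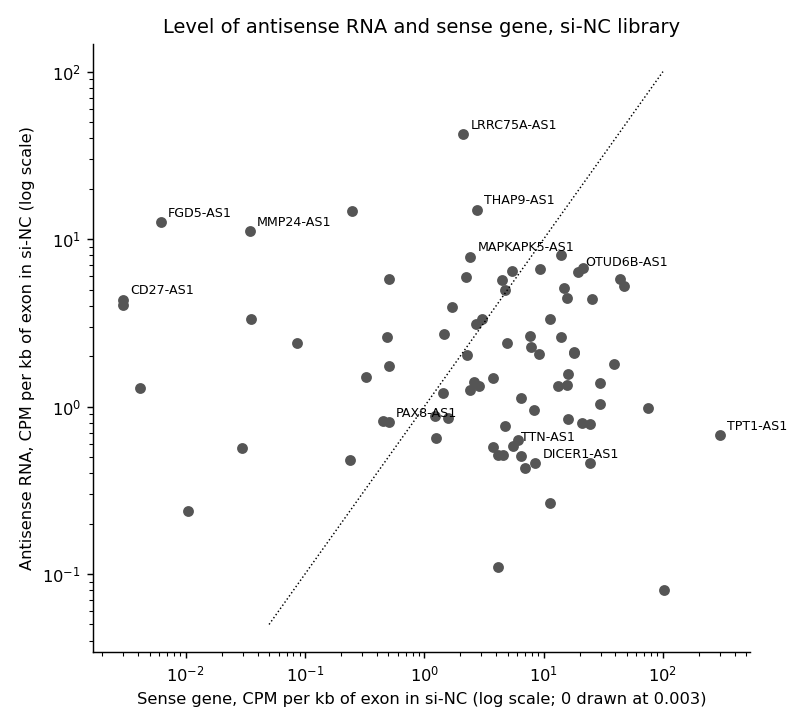
CPM per kilobase of exon in the si-NC library for the sense gene (horizontal axis, log scale) and its antisense RNA (vertical axis, log scale) in 80 pairs; the dotted line marks equal levels and sense genes at 0 are drawn at the left edge. LRRC75A-AS1 (42.4) and THAP9-AS1 (14.9) lie above the line, and TPT1-AS1 (0.675 against 300.5) lies farthest to the right.

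The sense genes as a group did not share the members' upward median. Over the 81 pairs whose sense gene had at least 1 count, the median log2 ratio was 0.13 for the antisense RNAs and 0.00 for the sense genes, and the median of the pairwise difference was 0.09. Over the 66 pairs with at least 100 counts for the sense gene the medians were 0.13 and -0.01, and the median difference was 0.11. In these 66 pairs 17 sense genes (25.8%) were called higher and 16 (24.2%) lower, near the 21.5% and 28.9% of all rows. The antisense RNA and the sense gene had the same sign in 34 of 66 pairs.

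Across the 66 pairs the coefficients between the log2 ratios of the antisense RNA and of the sense gene were near 0. Most members were not separated from no change, and counting error of that size pulls a coefficient toward 0. A weak relation could thus be missed. Pearson's coefficient was -0.05 and Spearman's -0.05, as a description, since all pairs share the same 2 libraries. In the 32 pairs with starts within 1000 bp they were -0.07 and -0.03, and in the 33 pairs with starts farther apart -0.05 and -0.09. These distances are those of GENCODE, in which KMT2E-AS1 and PCBP1-AS1 start 73378 and 15743 bp from the sense gene's start, while in RefSeq they start 64 and 462 bp from it and share its promoter window. Over 746 pairs of coding genes with starts within 1000 bp on opposite strands both coefficients were 0.00. They were as near 0 as those of the pairs of antisense RNA and sense gene.

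**Figure D4:**
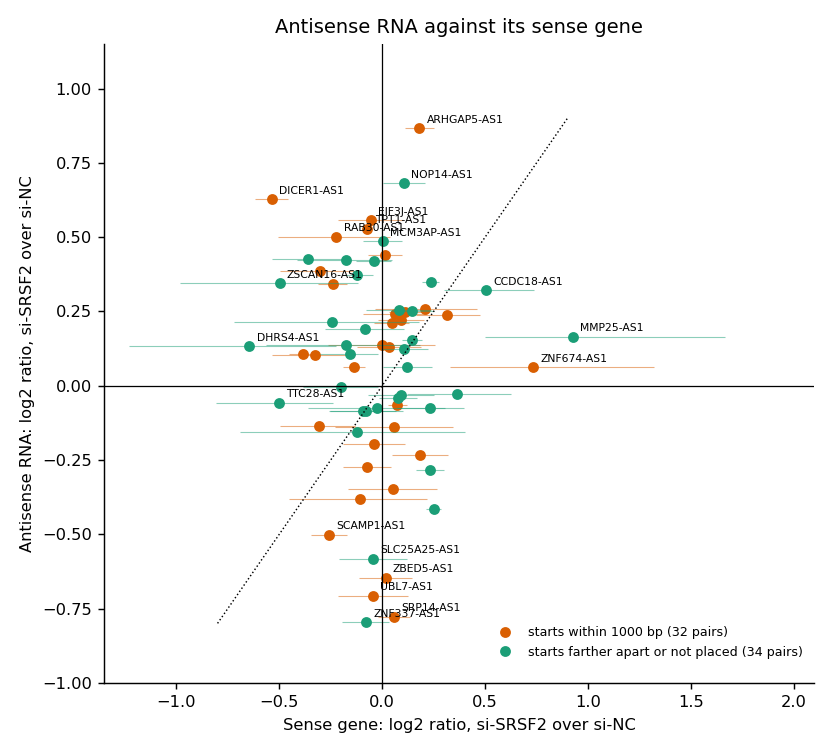
Log2 ratio of si-SRSF2 over si-NC for the sense gene (horizontal axis) and its antisense RNA (vertical axis) in the 66 pairs with at least 100 counts for the sense gene; horizontal lines are the 95% counting intervals of the sense gene and the dotted line marks equal ratios. Pairs with starts within 1000 bp (orange, 32 pairs) and the other 34 pairs (green) both scatter around 0, with DICER1-AS1 at the upper left and SRP14-AS1 and ZNF337-AS1 at the bottom.

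The ratio of antisense to sense was compared within each pair. Its change is given as the log2 ratio of the antisense RNA less that of the sense gene, both with 0.5 CPM added, and its interval is that of the odds ratio of the 4 counts, which does not depend on how the libraries are scaled. The interval excluded no change in 26 of the 66 pairs (39.4%), with the antisense side higher in 16 and lower in 10. Among coding gene pairs with close opposite starts, in which the gene with fewer counts had 100 to under 1000, 39.9% (174 of 436) passed the same rule in either direction, near the share of the antisense pairs. The gene with fewer counts had a median of 486 counts in those coding pairs and 224.5 in the antisense pairs, so the intervals of the 2 sets rest on different depths. NRSN2-AS1, whose sense gene NRSN2 had 14 and 4 counts, had a difference of 1.18 with a wide interval (0.18 to 4.09).

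Among pairs with at least 20 sense counts the largest shift was at DICER1, which encodes the RNase that cuts miRNA precursors. DICER1 had 3763 and 1889 counts, a log2 ratio of -0.54 (-0.62 to -0.46), while DICER1-AS1 had 48 and 58. The antisense share of the pair's counts was 1.26% and 2.98%, and the log2 ratio of DICER1-AS1 less that of DICER1 was 1.16 (0.68 to 1.86). DICER1-AS1 was among the members nearest the count minimum. Its gene overlaps the first part of DICER1 head-to-head, and 1.52% of its exonic bases are shared.

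The next largest antisense shifts were in pairs whose sense gene was lower. ZSCAN16-AS1 had 66 and 63 counts and ZSCAN16, a zinc finger gene, 138 and 69, a difference in log2 ratio of 0.84 (0.25 to 1.62). LBX2-AS1 had 137 and 109 counts and the homeobox gene LBX2 66 and 27, a difference of 0.81 (0.18 to 1.76). EMC3-AS1 had 71 and 72 counts and EMC3, a subunit of a membrane protein insertase, 767 and 434 (0.79). DHRS4-AS1 had 237 and 190 counts and the dehydrogenase gene DHRS4 113 and 50 (0.78). In these 4 pairs the sense gene was called lower and the antisense RNA was not called in either direction.

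The antisense share was lower in si-SRSF2 where the antisense RNA itself was lower or the sense gene was higher. SRP14 had 3084 and 2340 counts, a log2 ratio of 0.06 (-0.02 to 0.14), so that the difference of -0.84 (-1.49 to -0.40) lay on the antisense side. ZNF337 had 1524 and 1050 counts, a ratio of -0.08, and the difference was -0.72 (-1.24 to -0.34). MMP25, a membrane-anchored metalloproteinase gene, had 43 and 66 counts beside 119 and 98 for MMP25-AS1 (difference -0.76). The zinc finger gene ZNF674 had 63 and 81 counts beside 89 and 68 for ZNF674-AS1 (-0.67).

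TTN-AS1 lies across the gene of the giant muscle protein titin. TTN had 13224 and 11453 counts, a log2 ratio of 0.25 (0.21 to 0.29), while TTN-AS1 had 296 and 160, a ratio of -0.41 (-0.72 to -0.15). The antisense share was 2.19% in si-NC and 1.38% in si-SRSF2. The pair is among those with over 50% of antisense exonic bases shared.

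**Figure D5:**
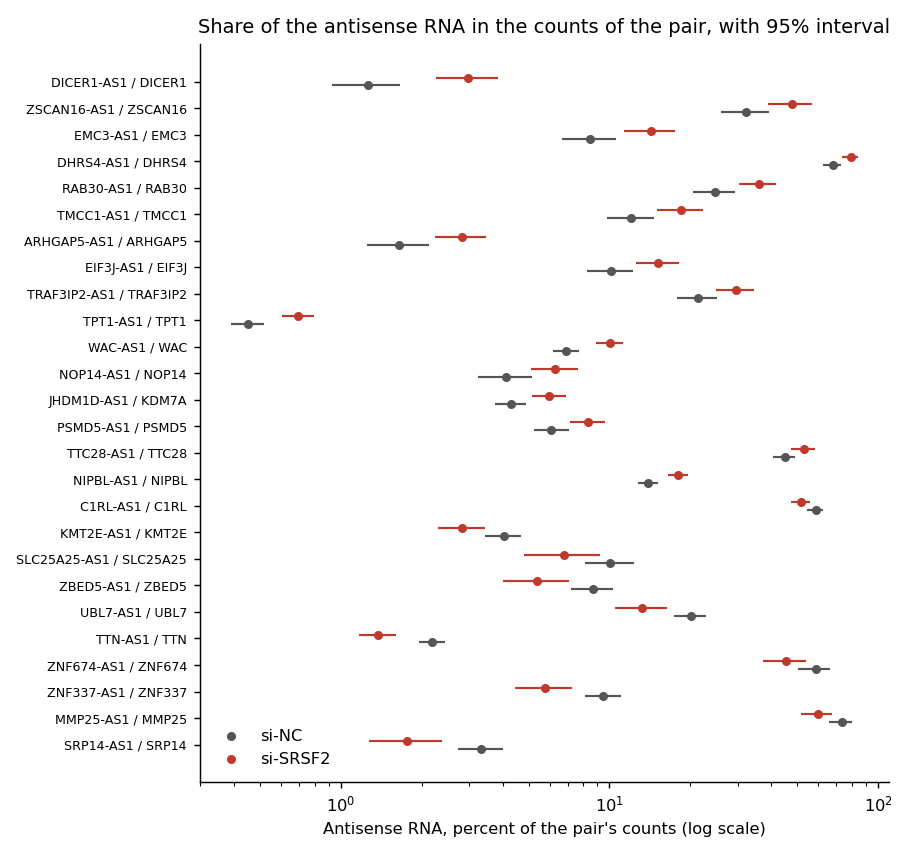
Share of the antisense RNA in the counts of its pair (horizontal axis, percent, log scale) in si-NC (grey) and si-SRSF2 (red) for the 26 pairs with at least 100 sense counts whose antisense-to-sense ratio was called, ordered by its change. Points are 1 library each and lines are 95% Clopper-Pearson intervals; the share rises from 1.26% to 2.98% at DICER1 (top) and falls from 3.32% to 1.76% at SRP14 (bottom).

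Both genes of a pair were called in 9 pairs, in opposite directions in 4. Among the 64 pairs in which the gene with fewer counts had 100 to under 1000, 4 (6.25%) were called in opposite directions and 4 (6.25%) in the same direction, against 10.3% and 8.94% of the coding gene pairs in that range. WAC-AS1 (300 and 279 counts), TPT1-AS1 and DICER1-AS1 were higher while WAC (4056 and 2498, log2 ratio -0.24), TPT1 (-0.07) and DICER1 were lower, and TTN-AS1 was lower while TTN was higher. WAC is a chromatin adaptor for histone ubiquitination. In 5 pairs they were called in the same direction. CCDC18-AS1 (0.32) and CCDC18 (346 and 361 counts, 0.51), ARHGAP5-AS1 and ARHGAP5 (3466 and 2861, 0.18), NOP14-AS1 and NOP14 (1747 and 1370, 0.11) and FOXD2-AS1 and FOXD2 (17 and 34, 1.07) were higher, and SCAMP1-AS1 and SCAMP1 (2800 and 1702, -0.26) were lower. FOXD2 was the only sense gene of these 9 with under 100 counts.

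Of the 25 members that share a promoter window with the sense gene, 6 (24%) were called higher and 4 (16%) lower, and of their sense genes 5 (20%) and 9 (36%), against 21.5% and 28.9% of all rows. Of the 13 pairs that share a promoter window and had a called antisense-to-sense ratio, the antisense RNA was called higher in 6 and lower in 3, and the sense gene higher in 2 and lower in 5. In 6 of the 13 the sense gene was not called, as at EIF3J (815 and 571 counts, log2 ratio -0.06, interval -0.21 to 0.10), UBL7 (677 and 478, -0.04, -0.22 to 0.13) and ZBED5 (1169 and 861, 0.02, -0.11 to 0.14). At KDM7A (-0.39), TMCC1 (-0.30), KMT2E (0.23) and ZNF674 (0.73) the sense gene was called and the antisense RNA was not. These 13 were kept because the ratio of the 2 genes was called, so calls on either side come with the choice.

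The name before -AS1 was not always that of the gene across the promoter. In the gene models 50 members had a coding gene start on the opposite strand within 1000 bp. In 2 of these the nearest such gene has no name in the models. At 1 of them, RNASEH1-AS1, the named gene RNASEH1 starts equally near, at 86 bp. In 1 further member the nearest gene had 0 counts, and in 16 of the other 47 it was another gene than the named one. NOP14-AS1 starts 48 bp from MFSD10, whose log2 ratio was -0.13 (3246 and 2167 counts), and ZNF337-AS1 starts 31 bp from NANP, with 0.03 (868 and 646 counts). Of the 16 genes 3 (18.8%) were called higher, 2 (12.5%) lower and 11 neither, against 21.5% and 28.9% of all rows.

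HOXB-AS1 lies between homeobox genes that set position along the body axis. It had 119 and 95 counts, a log2 ratio of 0.12 (-0.27 to 0.53), with the opposite-strand overlap given above. Its nearest opposite coding start is that of HOXB2, which had 389 and 235 counts (-0.26, called lower). HOXB3 had 548 and 521 counts (0.38, called higher), and HOXB13 201 and 99 (-0.53, called lower). The genes of the cluster thus lay on both sides of 0, with the antisense RNA between them.

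Rows named by other rules for noncoding RNAs were few in number but for the LINC rows. Of the 7 rows ending in -AS2 or a higher number with 100 counts or more, 0 were called higher and 2 lower, HIF1A-AS2 (193 and 89 counts, log2 ratio -0.62) and PSMD6-AS2 (133 and 43, -1.05), with a median of 0.10 over the 7. Of the 58 LINC rows, long intergenic noncoding RNAs, 16 (27.6%) were higher and 11 (19.0%) lower, against 21.5% and 28.9% of all rows, with a median of 0.09. Of 2 intronic transcripts with the ending -IT, ALMS1-IT1 (128 and 56 counts, -0.67) was lower and NPTN-IT1 (-0.28) was not called.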

How the data were processed

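RNA-seq was deposited for 1 si-NC and 1 si-SRSF2 library of RKO cells. The deposited values are raw read counts per gene symbol: the authors aligned reads to GRCh38 with HISAT2 (version 2.0.4 in the submitters' processing notes) and counted them with HTSeq, without normalization. The members and lists were chosen with earlier results of these data known. All 54261 rows were scaled with TMM in edgeR 4.0.16 (R 4.3.3), and log2 ratios used 0.5 CPM as pseudocount. Clopper-Pearson intervals of 95% came from SciPy 1.17.1, and those of the antisense-to-sense ratio are exact conditional odds-ratio intervals, all covering counting error only. The calculations were tested on simulated data. Positions came from GENCODE release 44, and promoter windows from RefSeq on GRCh38.p14. Genes were named by fixed rules: the 10 members with most counts, the 8 highest and 8 lowest ratios called, the 5 highest and 5 lowest antisense-to-sense ratios called with 20 or more sense counts, pairs called on both sides, 3 rows on either side of the count minimum, and their sense genes. The other members called, the snoRNA hosts, the HOXB genes and the printed promoters were chosen after their values were seen. Scaling by DESeq2 1.42.0, by upper quartiles and by total counts, other pseudocounts and count minimums and other sets of pairs were tried as alternatives. The result for 1 member by itself is left out.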

Additional observations from a re-analysis of the deposited data

How the results depend on the processing

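The median log2 ratio of the antisense RNAs stayed between 0.10 and 0.15 under every scaling, pseudocount and count minimum tried, and the median antisense-to-sense difference between 0.05 and 0.14 under these and the other sets of pairs. With a minimum of 50 counts, 1 antisense RNA was at least 2-fold higher and 2 were at least 2-fold lower, against 0 and 0. With a minimum of 200 counts, 7 were called lower in place of 12, from fewer rows. Size factors of DESeq2 and total counts changed 0 of the 87 calls and upper-quartile factors changed 8. Of the single genes' alternative values 378 were counted as unmoved, 2 as moved (FLVCR1-AS1 to -0.92 with 2 CPM added, TPT1 to -0.05 with upper-quartile factors) and 0 called values reversed. An unmoved value can still differ somewhat and need not keep its call, as with SCAMP1-AS1, THAP9-AS1 and EMC3-AS1 under upper-quartile factors. The sign of 1 member not called, SVIL-AS1, changed from -0.01 to 0.02 with upper-quartile factors. Pairing by nearest start and the restriction to rows under 1000 counts were added after seeing the data. No paired analysis was possible because only 1 library stood on each side, and for that reason none could be left out. The median member had 243 counts over both libraries, and 57 of the 87 ratios could not be separated from no change at this depth.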
